A study of Mus musculus with 6 samples.

Results

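CpG islands that lie inside gene bodies were read for 5-methylcytosine in the cerebral cortex of mouse embryos without and with Uhrf1. Islands were computed from the GRCm38 sequence by merging windows of 200 bp with a GC content of at least 50% and an observed to expected CpG ratio of at least 0.6. A gene body island had to lie on an autosome, within a protein-coding gene (GENCODE M21), and over 2000 bp from every annotated protein-coding 5′ end. It also needed 3 or more cytosines with a coverage of 6 reads or more in every one of the 6 libraries. This gave 7831 gene body islands in 4470 host genes, which is 26.8% of the 29209 measured autosomal islands. The others were 14215 promoter islands, 7040 intergenic islands and 123 islands across the edge of a gene. The sequence itself held 171512 autosomal islands, most of which did not reach the coverage in all libraries. As whole merged regions, 4259 of the 7831 gene body islands lay under the ratio of 0.6, and the median ratio was 0.594.

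The assay was Ox-RRBS, a reduced representation bisulfite method in which MspI digestion enriches CpG-rich fragments and an oxidation step makes 5-hydroxymethylcytosine read as unmethylated. The cKO group held 3 libraries of full cortex from C57BL/6 embryos at embryonic day 16 labelled Uhrf1 -/-. The control group held 3 libraries of the same tissue, strain and age labelled Uhrf1 +/-. Per the study's methods, embryos of both groups carried Emx1-Cre, which acts in the dorsal telencephalon and deletes a floxed exon of Uhrf1, so that control cells kept 1 working copy. The dissected cortex also holds cells outside the Emx1 lineage, and in such bulk DNA a loss in part of the cells and a partial loss in each cell cannot be told apart. The labels do not say which libraries share a litter, so a p-value here reflects the spread among libraries, which may be technical. The libraries do not read the deletion itself, so the labels were not checked against it.

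Uhrf1 binds CpGs that are methylated on a single strand after replication and brings in Dnmt1, which copies the mark to the new strand. CpG islands at promoters are mostly free of methylation in every tissue. Islands inside genes are often methylated in somatic cells, and some of them act as start sites of other transcripts or, at imprinted genes, carry methylation on the allele of a single parent.

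Sequences of 8 gene body islands on which the results turn are shown here, from GRCm38 and on the + strand, 5′ to 3′. Capitals mark CpGs measured in all 6 libraries. The first 3 are from islands among the largest losses of methylation, in a coding exon of Ncoa5 (a nuclear receptor coactivator, chr2:165012929-165013228, host gene on the - strand), of Prpf8 (a core protein of the spliceosome, chr11:75491404-75491609, + strand) and of Trim39 (a ubiquitin ligase, chr17:36263703-36263923, - strand). The Zfhx3 island (a zinc finger and homeobox transcription factor, chr8:108949430-108949729, coding exon, + strand) kept nearly all of its methylation. The windows from introns of Igf2r (chr17:12741580-12741879, - strand), Kcnq1 (chr7:143295459-143295758, + strand) and Trappc9 (chr15:72809870-72810169, - strand) belong to islands near the start of an imprinted non-coding RNA. The window in an intron of Lhx5 (a LIM homeobox factor, chr5:120436129-120436428, + strand) is from an island without methylation in either group.
Ncoa5: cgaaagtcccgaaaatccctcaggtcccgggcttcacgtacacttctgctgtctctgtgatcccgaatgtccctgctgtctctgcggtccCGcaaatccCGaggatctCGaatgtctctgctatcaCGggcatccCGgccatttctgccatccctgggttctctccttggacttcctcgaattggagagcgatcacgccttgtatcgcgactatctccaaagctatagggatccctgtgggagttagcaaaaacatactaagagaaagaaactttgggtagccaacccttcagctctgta
Prpf8: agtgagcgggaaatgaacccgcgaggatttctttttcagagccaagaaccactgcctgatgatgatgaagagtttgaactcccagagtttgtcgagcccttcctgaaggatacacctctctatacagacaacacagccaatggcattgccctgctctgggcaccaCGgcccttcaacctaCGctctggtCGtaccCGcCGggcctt
Trim39: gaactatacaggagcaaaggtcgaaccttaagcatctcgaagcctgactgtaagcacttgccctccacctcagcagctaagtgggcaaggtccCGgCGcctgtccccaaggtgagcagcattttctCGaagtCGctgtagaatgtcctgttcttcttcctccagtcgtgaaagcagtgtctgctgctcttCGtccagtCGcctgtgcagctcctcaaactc
Zfhx3: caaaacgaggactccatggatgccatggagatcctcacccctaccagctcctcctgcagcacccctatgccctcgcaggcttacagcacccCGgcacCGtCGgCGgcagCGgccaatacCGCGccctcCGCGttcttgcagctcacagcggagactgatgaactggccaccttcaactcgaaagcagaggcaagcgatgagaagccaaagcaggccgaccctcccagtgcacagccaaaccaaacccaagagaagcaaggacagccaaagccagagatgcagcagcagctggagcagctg
Igf2r: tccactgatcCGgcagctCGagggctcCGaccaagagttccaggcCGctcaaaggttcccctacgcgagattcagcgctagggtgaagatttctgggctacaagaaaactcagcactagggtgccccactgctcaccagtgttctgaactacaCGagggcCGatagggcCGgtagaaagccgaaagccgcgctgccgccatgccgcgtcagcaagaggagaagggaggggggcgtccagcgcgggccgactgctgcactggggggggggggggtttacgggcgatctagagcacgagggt
Kcnq1: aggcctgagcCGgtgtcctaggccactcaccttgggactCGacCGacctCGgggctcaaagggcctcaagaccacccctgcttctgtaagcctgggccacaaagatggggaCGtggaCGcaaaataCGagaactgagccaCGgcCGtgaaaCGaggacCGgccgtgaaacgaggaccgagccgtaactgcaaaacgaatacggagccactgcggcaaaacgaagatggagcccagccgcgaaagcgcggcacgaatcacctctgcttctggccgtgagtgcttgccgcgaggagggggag
Trappc9: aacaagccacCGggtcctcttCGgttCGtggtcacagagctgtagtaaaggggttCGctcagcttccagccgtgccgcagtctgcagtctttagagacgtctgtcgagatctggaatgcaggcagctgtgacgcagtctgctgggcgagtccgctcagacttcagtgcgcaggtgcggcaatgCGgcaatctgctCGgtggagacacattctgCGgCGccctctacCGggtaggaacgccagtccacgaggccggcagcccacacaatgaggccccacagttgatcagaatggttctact
Lhx5: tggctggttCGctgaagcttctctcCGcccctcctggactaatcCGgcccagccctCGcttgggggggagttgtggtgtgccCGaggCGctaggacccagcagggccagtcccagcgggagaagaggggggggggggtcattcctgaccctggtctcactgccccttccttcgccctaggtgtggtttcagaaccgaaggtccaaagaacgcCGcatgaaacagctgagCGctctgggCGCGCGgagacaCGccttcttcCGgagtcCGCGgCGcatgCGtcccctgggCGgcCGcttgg

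In the first 3 windows, chosen among the largest falls, the measured CpGs differed in the same way along their length. In the Ncoa5 window the mean of the cKO libraries lay between 14.7% and 29.8% at each of 5 cytosines, against 95.5% to 100% in the mean of control replicates 2 and 3. In the Prpf8 window the 6 cytosines lay between 13.5% and 29.3% in cKO, against 92.9% to 100% in those controls. In the Trim39 window the 6 cytosines lay between 11.6% and 23.1% in cKO and between 92.7% and 96.7% in those controls. No cytosine of these 3 windows was spared in cKO. Over the same cytosines the library labelled control replicate 1 was also low, at 10% to 41.7%. The 9 cytosines of the Zfhx3 window, in contrast, lay between 85.9% and 100% in cKO, against 90.7% to 100% in the same controls. The Lhx5 window had 21 measured cytosines, at 0% to 7.08% in cKO and 0% to 16.7% in those controls.

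The libraries held 22495858 to 31019082 reads over listed cytosines in cKO and 18238737 to 22212920 in control, with a median coverage of 13 to 17 reads. A gene body island had a median of 5 measured cytosines. Its reads are summed over its cytosines, so a read that covers several cytosines is counted at each of them. At the median an island had 130, 165 and 168 such reads in cKO replicates 1, 2 and 3. In control replicates 1, 2 and 3 it had 107, 128 and 102, with a minimum of 18. The library labelled control replicate 1 stood apart from the other controls, with methylation like that of the cKO group. Its label is kept, and results are given with all 6 libraries and without it. Leaving it out selects a control by the outcome measured, so every value without it depends on that choice.

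Gene body islands carried less methylation in the cKO libraries than in control replicates 2 and 3. Their mean methylation was 32.5%, 31.1% and 25.3% in cKO replicates 1, 2 and 3, against 26.3%, 65.1% and 64.6% in control replicates 1, 2 and 3. All cKO libraries lay below control replicates 2 and 3, and the library labelled control replicate 1 lay between cKO replicates 2 and 3. The group means were 29.6% ± 3.82 in cKO and 52.0% ± 22.3 in control (SD, n = 3 each), a difference of -22.3 percentage points (exact two-sided permutation test, p = 0.3, with 0.1 the smallest that 3 against 3 libraries allow). Without the library labelled control replicate 1 the control mean was 64.8% ± 0.383 (SD, n = 2) and the difference was -35.2 points (exact two-sided permutation test, p = 0.1, the smallest that this design allows). No difference could pass a threshold of 0.05 in either design.

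The distribution of single islands changed its shape between these libraries. In cKO replicates 1, 2 and 3, 2.26%, 2.11% and 1.15% of gene body islands were at 75% or more, and 19.2%, 19.9% and 21.5% were under 10%. In control replicates 2 and 3, 60.4% and 59.6% were at 75% or more, and a further 16.6% and 16.7% were under 10%. The library labelled control replicate 1 had 1.71% and 24.2% in these classes. Islands at 75% or more were thus rare in the cKO libraries and the library labelled control replicate 1 and the common state in control replicates 2 and 3, whereas islands under 10% made up between 16.6% and 24.2% in every library.

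**Figure D1:**
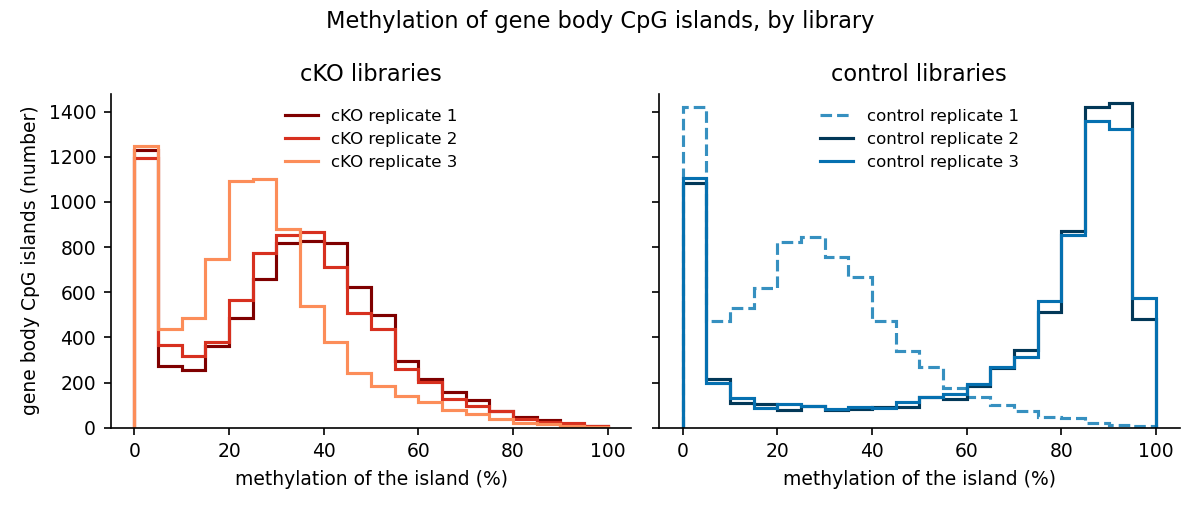
Histograms of the methylation of the 7831 gene body islands (x axis, percent; y axis, number of islands), with the cKO libraries on the left and the control libraries on the right; the library labelled control replicate 1 is dashed. The cKO medians are 33.9%, 31.7% and 24.5%, and control replicates 2 and 3 peak at high methylation, with medians of 81.9% and 81.3%, beside 25.1% in the library labelled control replicate 1.

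For each island, methylated and unmethylated reads were compared between groups with a quasi-binomial F test, and a call needed q under 0.01 (Benjamini-Hochberg) together with group means 25 or more percentage points apart. With all 6 libraries 0 gene body islands were called lower and 0 higher in cKO, as were 0% of all measured islands. At an unadjusted p under 0.05 there were 1712 gene body islands. The limma test on logit values also called 0, with 2116 at an unadjusted p under 0.05, and a test with each island's own dispersion called 0, with 637. A plain binomial test, which has no term for the spread between libraries, called 4012 lower. Groups did not overlap with cKO lower in 1041 gene body islands (13.3%), beside 7.58% of all measured islands, and with cKO higher in 147 (1.88%), beside 7.88%.

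Without the library labelled control replicate 1, 5046 gene body islands (64.4%) were called lower in cKO and 0 higher, beside 31.1% lower and 0% higher among all measured islands. Of the gene body islands 6025 had an unadjusted p under 0.05. A test with each island's own dispersion called 0, with 5426 at an unadjusted p under 0.05, limma called 3984, and leaving out control replicate 2 as well gave 2860 calls. All cKO libraries were below both controls in 6249 gene body islands (79.8%), beside 43.7% of all measured islands, and above both in 214 (2.73%), beside 11.0%. An island could fall by 25 points only where control replicates 2 and 3 averaged at least 25%, which held for 6226 gene body islands, and of these 81.0% were called lower. A stricter island definition asked for at least 500 bp, a GC content of 55% and a ratio of 0.65. It left 667 gene body islands, with 194 able to fall and 24 called lower, beside 30 of 11249 islands of every class.

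The islands at the host gene's own promoter carried little methylation in any library and so had little to lose. Promoter islands averaged 4.32%, 5.03% and 4.35% in cKO replicates 1, 2 and 3, against 3.51%, 8.03% and 7.84% in control replicates 1, 2 and 3. A total of 3500 host genes had both a promoter island and a gene body island. In these genes the gene body islands averaged 32.8%, 31.4% and 25.5% in the cKO libraries and 26.4%, 66.7% and 66.1% in the control libraries, in replicate order. The promoter islands of the same genes averaged 3.12%, 3.92% and 3.42% in the cKO libraries and 2.57%, 5.71% and 5.55% in the control libraries. In control replicates 2 and 3 the gene body island was the more methylated of the pair in 3272 of the 3500 genes. The gap between gene body and promoter was 26.4 points in cKO and 48.5 points in control (exact two-sided permutation test, p = 0.3), or 60.8 points in control without the library labelled control replicate 1 (exact, p = 0.1). With the promoter level low throughout, this gap mostly follows the gene body level.

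Over all islands of each class the same contrast was smaller against intergenic islands. Intergenic islands averaged 33.1%, 32.6% and 28.0% in cKO replicates 1, 2 and 3, against 28.4%, 56.2% and 55.7% in control replicates 1, 2 and 3. Gene body minus intergenic methylation was -1.57 points in cKO and 5.17 points in control (exact two-sided permutation test, p = 0.3), or 8.83 points in control without the library labelled control replicate 1 (exact, p = 0.1). The gap in cKO depended on the weighting and on the 5′ ends used, at 8.43 points with each read weighted equally and -5.19 points with the 5′ ends of genes only, against 17.2 and -1.31 points in control. The difference between the groups stayed negative in both, at -8.73 and -3.88 points. Of islands able to fall, 81.0% of gene body islands, 72.2% of 1300 promoter islands and 64.1% of 4808 intergenic islands were called lower in the test that left out the library labelled control replicate 1.

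**Figure D2:**
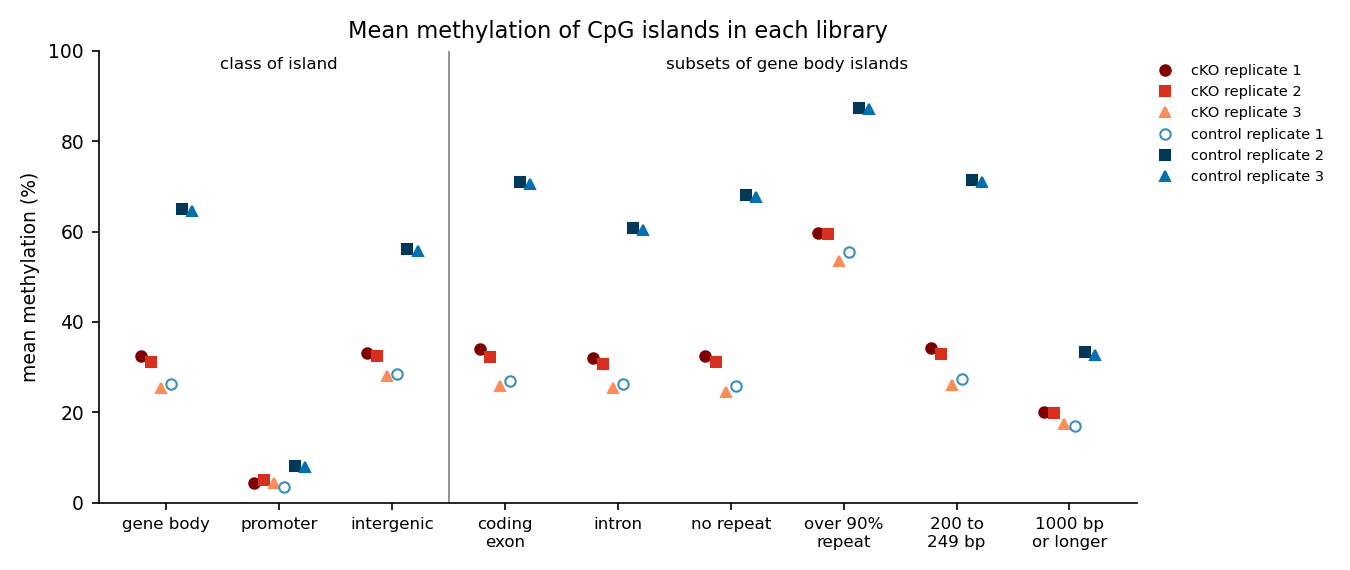
Mean methylation (y axis, percent) in each of the 6 libraries for the 3 classes of island (left of the line) and for subsets of gene body islands (right of the line); red symbols are cKO, blue are control, and the open symbol marks the library labelled control replicate 1. Control replicates 2 and 3 stand above the other 4 libraries in every column, and the distance is smallest in promoter islands.

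Islands at 75% or more in control replicates 2 and 3 differed by -47.9 points between cKO and these controls, and islands at 25% to 75% by -31.6 points. An island cannot lose more than it holds, so this order is in part set by the level. The share of methylation left is given here as the cKO mean in percent of the mean of control replicates 2 and 3, for islands able to fall. Its median was 42.5% in gene body islands, 42.8% in promoter islands and 51.8% in intergenic islands, and by library it was 48.1%, 45.5% and 35.2% in cKO replicates 1, 2 and 3. In gene body islands 5% of values lay under 26.9% and 5% over 74.5%. Of the 6226 islands, 217 kept at least 80%, 56 kept under 20%, and 21 kept at least 100%.

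Islands were also sorted by control replicate 2 alone and read in the other libraries. The 1920 islands at 90% to 100% in that library averaged 44.5% ± 4.85 in cKO (SD, n = 3), against 90.1% in control replicate 3 and 40.5% in the library labelled control replicate 1. The 2295 islands at 80% to 90% averaged 37.1% ± 5.31 in cKO, against 85.6% in control replicate 3. The loss in points was thus no larger at 90% to 100% than at 80% to 90%. The 857 islands at 70% to 80% averaged 32.1% ± 4.72 in cKO, against 76.6% in control replicate 3. The share of the control replicate 3 level in cKO was 49.3% at 90% to 100%, 43.3% at 80% to 90% and 41.9% at 70% to 80%. At the low end, 1299 islands under 10% in control replicate 2 averaged 2.91% ± 0.395 in cKO, against 2.82% in control replicate 3, so that unmethylated islands remained near 0% in both groups.

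Gene body islands fell into 4 groups by their level in control replicates 2 and 3. The 4735 islands at 75% or more averaged 43.3%, 41.8% and 33.9% in the cKO libraries, against 35.6%, 87.7% and 87.5% in the control libraries, and 89.3% of them were called lower in the test that left out the library labelled control replicate 1. The 1491 islands at 25% to 75% were called in 54.9%. The 317 islands at 10% to 25% and the 1288 islands under 10% could not fall by 25 points. The last of these were long, with a median of 500 bp against 342 bp over all gene body islands, and averaged 2.31%, 3.16% and 2.84% in cKO and 1.87%, 2.37% and 2.18% in control. In 31 of these 1288 islands the cKO mean was 10% or more.

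In the islands at 75% or more, the library labelled control replicate 1 was below all 3 cKO libraries in 1750, within their range in 2232 and above them in 753. A total of 49 gene body islands were at 75% or more in all 3 cKO libraries, and 43 of these were also at 75% or more in that library.

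Among called islands with at least 5 cytosines and 50 reads in every library, the 10 largest falls were all above 70 points, and 7 of them lay in coding exons. Ncoa5 (chr2:165012833-165013228) was at 18.2%, 28.0% and 12.8% in cKO replicates 1, 2 and 3, against 20%, 96.5% and 98.5% in control replicates 1, 2 and 3. The cKO mean was 19.7% ± 7.71 (SD, n = 3) and the mean of control replicates 2 and 3 was 97.5% ± 1.39 (SD, n = 2), a difference of -77.8 points (quasi-binomial q = 6.41e-06 without the library labelled control replicate 1, and q = 0.488 with all 6 libraries). The cKO libraries and the library labelled control replicate 1 lay under 30%, and the other 2 controls were almost fully methylated. Prpf8 was at 26.7%, 17.5% and 19.6% in the cKO libraries and at 21.5%, 96% and 96.7% in the control libraries (q = 4.76e-06 and 0.488). Trim39 was at 14%, 29.3% and 15.2% in the cKO libraries and at 20.7%, 93.5% and 95.1% in the control libraries (q = 4.59e-06 and 0.488). In both, as in Ncoa5, the library labelled control replicate 1 lay within the range of the cKO libraries.

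Setd1a, a histone methyltransferase, had the lowest spread among the cKO libraries of these 10 islands. It was at 22.4%, 20.4% and 17.0% in the cKO libraries, against 13.9%, 89.7% and 92.0% in the control libraries (chr7:127784817-127785299, difference of -71.0 points, q = 1.22e-06 without the library labelled control replicate 1). Surf6, a nucleolar protein of ribosome biogenesis, was at 25.7%, 28.8% and 17.5% in the cKO libraries and at 20.9%, 92.4% and 97.8% in the control libraries. Control replicates 2 and 3 stood far above the other 4 libraries in both. Herc2, a large ubiquitin ligase, was at 22.3%, 31.1% and 22.9% in the cKO libraries and at 46.2%, 92.8% and 98.6% in the control libraries. Trmt6, a subunit of a transfer RNA methyltransferase, was at 19.6%, 24.2% and 25% in the cKO libraries and at 26.5%, 95.7% and 90.9% in the control libraries. In Herc2 and Trmt6 the library labelled control replicate 1 lay above all cKO libraries, and in Setd1a it lay below them.

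In the remaining 3 the cKO libraries were uneven. Plcg2, a phospholipase of immune receptor signaling, was at 5.77%, 11.1% and 37.3% in the cKO libraries and at 12.3%, 91.4% and 90.8% in the control libraries. Git1, a scaffold with GTPase-activating activity for Arf proteins, was at 2.0%, 0% and 26.4% in the cKO libraries and at 13.7%, 85.0% and 78.2% in the control libraries. Its 0 of 57 counts in cKO replicate 2, summed over 5 cytosines, give an upper limit of 5.26% if the counts are independent. The limit is higher where a read covers several of the cytosines. Fpgs, which attaches glutamates to folates, was at 7.28%, 36.5% and 20% in the cKO libraries and at 22.6%, 87.2% and 95.4% in the control libraries. In Plcg2 and Git1 it was cKO replicate 3 that stood highest, although this library had the lowest mean over all gene body islands.

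A small set of gene body islands kept its methylation. Of the 4735 islands at 75% or more, 146 kept at least 80%. None of these could be called, because with at least 80% kept they could not fall by as many points as a call needs. They averaged 80.4%, 78.9% and 75.3% in cKO replicates 1, 2 and 3, against 73.7%, 90.2% and 90.04% in control replicates 1, 2 and 3. The library labelled control replicate 1, which took no part in choosing them, was also high here. Of these islands 57.5% were over 50% soft-masked as repeats in the genome sequence and 80.8% had their midpoint in an intron. Among the 413 islands that kept under 30%, 2.66% were so masked and 41.9% lay in introns.

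The same sorting was repeated with cKO replicate 1 and control replicate 2 alone and read in the other libraries. The 237 islands that kept at least 80% by these 2 libraries were at 69.0% in cKO replicate 2 and 64.4% in cKO replicate 3, against 65.2% in the library labelled control replicate 1 and 90.1% in control replicate 3. The 504 islands that kept under 30% were at 33.9% in cKO replicate 2 and 25.3% in cKO replicate 3, against 27.2% in the library labelled control replicate 1 and 84.8% in control replicate 3. The order of the islands thus held in libraries that had not chosen them, with a smaller gap. Of the 237 islands 46.4% were over 50% soft-masked, against 3.97% of the 504.

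Among islands at 75% or more with at least 5 cytosines and 50 reads in every library, the 6 with the highest share left were named, and 5 of these lay in introns and were over 90% soft-masked. Hdac9, a histone deacetylase, was at 97.9%, 94.7% and 97.01% in the cKO libraries, against 97.04%, 97.1% and 95.8% in the control libraries (chr12:34733330-34733941, 94.3% soft-masked). The groups overlapped fully, with a difference of 0.0688 points (q = 0.968 without the library labelled control replicate 1). Fam81b had 44978 to 90467 reads per library and was at 92.8%, 92.9% and 91.9% in the cKO libraries and at 91.9%, 95.6% and 95.6% in the control libraries. Its groups did not overlap without the library labelled control replicate 1, but the difference of -3.08 points is far below that of the calls. Grxcr1, a protein of inner ear hair bundles, was at 88.7%, 85.5% and 83.1% in the cKO libraries and at 88.0%, 89.2% and 87.4% in the control libraries. Fcrl5, an Fc receptor-like protein of B cells, and Itgbl1, an integrin beta-like protein, kept 97.6% and 93.9% of the control level.

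The Zfhx3 island was the member of this set outside repeats. It was at 95.8%, 93.4% and 91.5% in the cKO libraries and at 83.3%, 97.7% and 96.9% in the control libraries (chr8:108948767-108949729, 963 bp, coding exon, 4.26% soft-masked). The value of the library labelled control replicate 1 rests on 6 reads at each of 9 cytosines, counted as 54. Its 95% Wilson interval of 71.3% to 91.0% takes these counts as independent. It is too narrow where a read covers several cytosines. The gene holds 24 gene body islands, and 12 of the 19 able to fall were called lower without that library, so other islands of the gene did lose methylation.

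**Figure D3:**
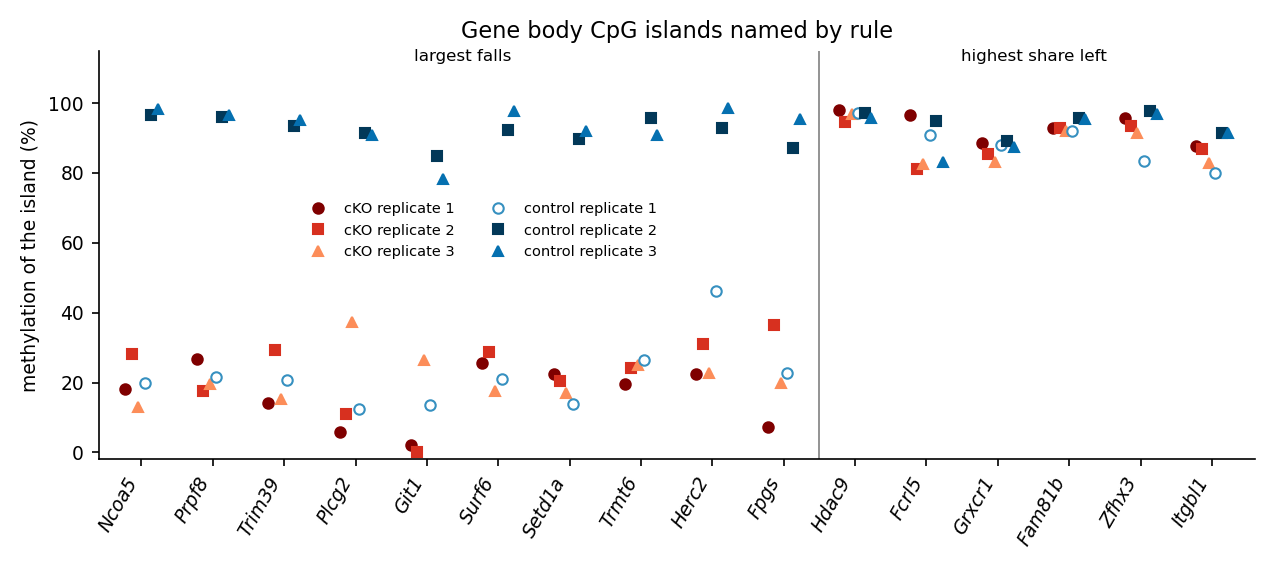
Methylation (y axis, percent) of the 10 gene body islands with the largest falls and the 6 with the highest share left among islands with at least 5 cytosines and 50 reads per library (x axis, host gene) in each of the 6 libraries; red symbols are cKO, blue are control, and the open symbol marks the library labelled control replicate 1. In the left set control replicates 2 and 3 stand apart at 78.2% to 98.6%, and in the right set all 6 libraries lie between 79.8% and 97.9%.

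The imprinted list held 17 gene body islands in 6 host genes, and 3 of them lie where a non-coding RNA gene starts within 2000 bp. Igf2r, the receptor that clears insulin-like growth factor from the cell surface, holds in an intron the start of Airn, an antisense RNA of the paternal allele. That island was at 48.7%, 42.3% and 39.0% in the cKO libraries, against 33.4%, 42.6% and 50.3% in the control libraries (chr17:12741262-12742677, 230 to 466 reads). The groups overlapped, and the island kept 93.3% of the level of control replicates 2 and 3 (q = 0.577 without the library labelled control replicate 1). The Kcnq1 island with the start of Kcnq1ot1, in an intron of a potassium channel gene, was at 35.3%, 26.5% and 29.6% in the cKO libraries and at 25.4%, 39.2% and 24.6% in the control libraries (chr7:143294958-143296694, 255 to 460 reads). It kept 95.5%, and its groups also overlapped (q = 0.988).

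The Trappc9 island with the start of Peg13, in a gene for a vesicle trafficking subunit, moved further. It was at 37.7%, 39.4% and 32.5% in the cKO libraries and at 42.2%, 51.3% and 53.4% in the control libraries (chr15:72809091-72810739, 294 to 734 reads). All cKO libraries lay below all controls, the library labelled control replicate 1 included. The difference from control replicates 2 and 3 was -15.8 points with 69.8% left (q = 0.0052), which did not reach the 25 points of a call.

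These 3 islands had levels in control replicates 2 and 3 of 46.5%, 31.9% and 52.4%, so they were set beside other gene body islands of a like level. A total of 726 gene body islands were at 25% to 60% in these controls, and their median share left was 44.7%, with quartiles of 35.6% and 56.1%. Of the 726, 27 kept as much as the Igf2r island or more, 23 as much as the Kcnq1 island and 81 as much as the Trappc9 island. The measured cytosines of the printed windows lay at 32.5% to 56.8% in cKO and 31.5% to 56.4% in control replicates 2 and 3 for Igf2r, at 19.5% to 48.4% and 25.4% to 38.2% for Kcnq1, and at 27.6% to 44.3% and 45.2% to 58.4% for Trappc9. None of these group means lay near 0% or near 100%.

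Other islands of the same host genes lost methylation. Of the 14 imprinted list islands able to fall, the other 11 kept 25.2% to 61.2%, with a median of 39.9%, and 10 of them were called lower in the test that left out the library labelled control replicate 1. A coding exon island of Igf2r was at 50.9%, 41.4% and 18.3% in the cKO libraries and at 11.2%, 94.7% and 82.0% in the control libraries. A second intron island of Kcnq1 (chr7:143380525-143380804) was at 19.8%, 12.3% and 12.7% in the cKO libraries and at 22.7%, 69.9% and 48.6% in the control libraries. Of the other 5 islands of Trappc9, 4 were called lower, and the nearest to Peg13 (chr15:72802509-72802734) was at 32.7%, 28.6% and 34.5% in the cKO libraries and at 42.4%, 90.7% and 91.9% in the control libraries. In all 3 genes the island at the non-coding start thus kept a larger share than the other islands of the gene that were able to fall.

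The remaining islands of the list were in Cdh15, a cadherin of muscle, in H13, a signal peptide peptidase, and in Herc3, a ubiquitin ligase. The intron island of Cdh15 was at 35.1%, 35.8% and 30.7% in the cKO libraries and at 46.0%, 84.0% and 89.5% in the control libraries. Its exon island differed between the 2 methylated controls, at 43.7%, 42.0% and 26.1% in the cKO libraries and at 36.3%, 82.5% and 46.4% in the control libraries. Herc3 was at 51.5%, 61.3% and 46.5% in the cKO libraries and at 59.1%, 86.0% and 87.6% in the control libraries. Of the 3 islands of H13, 1 was called lower, at 41.8%, 29.3% and 32.5% in the cKO libraries and at 33.3%, 90.1% and 70.4% in the control libraries.

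**Figure D4:**
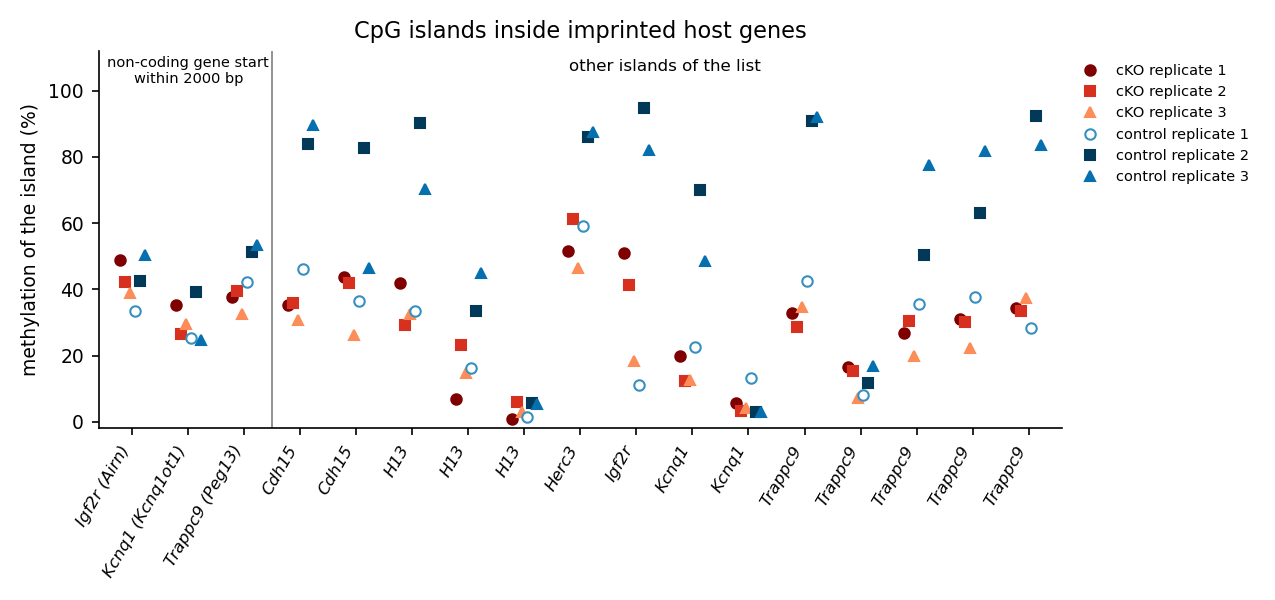
Methylation (y axis, percent) of the 17 gene body islands in host genes of the imprinted list (x axis) in each of the 6 libraries; red symbols are cKO, blue are control, and the open symbol marks the library labelled control replicate 1. The 3 islands left of the line, with a non-coding gene start within 2000 bp, lie between 24.6% and 53.4% in all libraries, and most islands on the right have control replicates 2 and 3 far above the rest.

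The hexamer TGCCGC, to which the imprinting factor Zfp57 binds when it is methylated, was counted on both strands. It was found in 19.7% of gene body islands and 34.9% of all measured islands, and within the central 200 bp, which sets the lengths equal, in 11.8% and 15.9%. The Igf2r island held 8 copies, the Trappc9 island 5 and the Kcnq1 island 3, in islands of 1416, 1649 and 1737 bp. Among gene body islands at 25% to 60%, 17.4% held a copy, and among the 325 gene body islands of 1000 bp or longer, 61.5% did. The MspI site CCGG, which can share at most 1 base with the hexamer, was found in 99.8% of gene body islands and 99.8% of all measured islands, with medians of 2 and 4 sites. These counts describe the letters of the islands only.

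The 8 gene lists grouped islands by the symbol of their host gene. Calls in the lists are from the test that left out the library labelled control replicate 1. That test called 64.4% of all gene body islands and 81.0% of the 6226 able to fall. With all 6 libraries no named island had a q under 0.488. Homeobox genes, which set regional and cell identity in the embryo, held 150 gene body islands, of which 54 were able to fall and 37 were called lower in the test that left out the library labelled control replicate 1. They averaged 16.9%, 16.1% and 13.9% in the cKO libraries and 14.4%, 28.9% and 29.2% in the control libraries, below the average of all gene body islands in every library. The 4 with most reads were unmethylated. Reads are summed over cytosines, so this choice favors islands with many measured cytosines, here and in the other lists. Lhx5 was at 0.313%, 1.23% and 1.41% in the cKO libraries and at 0.665%, 0.935% and 1.15% in the control libraries, with 1353 to 2367 reads. Pax7, Lhx4 and Nkx2-6, of dorsal, motor neuron and heart development, were at or below 1.73% in every library.

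Ion channel genes held 194 gene body islands, of which 145 were able to fall and 124 were called lower. They averaged 31.7%, 29.9% and 24.3% in the cKO libraries and 25.6%, 62.6% and 62.2% in the control libraries. The 4 with most reads had low methylation, unlike the list average. Cacna1a, a pore subunit of a neuronal calcium channel, was the highest of them. It was at 12.6%, 19.6% and 16.1% in the cKO libraries and at 11.0%, 19.3% and 15.5% in the control libraries, and the groups overlapped. Grin2c, an NMDA receptor subunit, Ryr1, the calcium release channel of muscle, and Kcng2, a potassium channel subunit, were at or below 1.83% in every library.

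Chromatin regulators held 94 gene body islands, of which 80 were able to fall and 70 were called lower. Arid1b, a subunit of the BAF remodeling complex, was at 44.1%, 39.2% and 33.6% in the cKO libraries and at 25.5%, 90.2% and 84.4% in the control libraries (q = 1.42e-06 without the library labelled control replicate 1). Kdm4a, a histone demethylase, was at 25.2%, 27.5% and 23.4% in the cKO libraries and at 25%, 71.1% and 63.3% in the control libraries (q = 6.57e-06). Arid5b, a DNA-binding cofactor, kept more, at 68.4%, 60.6% and 54.6% in the cKO libraries and 52.0%, 90.8% and 91.9% in the control libraries (q = 3.15e-05). Hdac5, a histone deacetylase, was between 2.13% and 5.06% in all libraries.

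Protocadherins, cell adhesion proteins of neurons, held 9 gene body islands, all able to fall, of which 7 were called lower. Pcdh18 was at 51.1%, 56.8% and 36.0% in the cKO libraries and at 38.4%, 95.1% and 95% in the control libraries (q = 6.13e-05 without the library labelled control replicate 1). Pcdh7, whose island is 98.4% soft-masked, was at 26.4%, 41.2% and 25% in the cKO libraries and at 19.5%, 85.8% and 84.7% in the control libraries. Pcdha7 was called lower, with 54.8% ± 4.01 in cKO (SD, n = 3) against 95.1% ± 1.72 in control replicates 2 and 3 (SD, n = 2), and Pcdhgc5 was not, with 17.4% ± 3.81 in cKO against 31.4% ± 12.8 in these controls. The 2 controls of Pcdhgc5 differed by more than the groups did.

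Synapse and axon genes held 116 gene body islands, of which 89 were able to fall and 72 were called lower. Shank2, a scaffold of the postsynaptic density, was at 48.8%, 53.6% and 42.8% in the cKO libraries and at 44.9%, 88.7% and 88.4% in the control libraries (q = 2.28e-06 without the library labelled control replicate 1). Bsn (Bassoon), a scaffold of the presynaptic active zone, was at 35.3%, 23.2% and 29.6% in the cKO libraries and at 20.5%, 56.9% and 56.4% in the control libraries (q = 3.51e-05). Shank1 and Nrxn2, of the same 2 sides of the synapse, were at or below 3.35% in every library. The islands of Shank1 and Shank2 named here thus differed in whether they were methylated at all. They were picked by most reads and not matched by place, so they do not compare the genes.

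Extracellular matrix and Notch genes held 118 gene body islands, of which 100 were able to fall and 84 were called lower. Jag2, a ligand of Notch, was at 39.2%, 36.4% and 22.4% in the cKO libraries and at 17.5%, 80.7% and 87.7% in the control libraries (q = 5.96e-06 without the library labelled control replicate 1). The receptor Notch3 was low throughout, at 6.87%, 5.12% and 7.95% in the cKO libraries and 7.88%, 10.4% and 13.2% in the control libraries. Hspg2 (perlecan), a heparan sulfate proteoglycan of basement membranes, and Col6a2, a collagen chain, kept 43.7% and 61.4%, and both were called lower.

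Zinc finger genes held 173 gene body islands, of which 149 were able to fall and 122 were called lower. Zfp775 was at 37.5%, 43.5% and 32.9% in the cKO libraries and at 29.2%, 90.9% and 90.1% in the control libraries (q = 4.45e-07 without the library labelled control replicate 1). Zfp316, with 80 measured cytosines, was at 10.6%, 8.03% and 5.49% in the cKO libraries and at 5.75%, 15.2% and 13.8% in the control libraries. Zfp697 and Zfp503 were at or below 1.53% in every library. Over the islands able to fall, the median share left was 45.3% in the homeobox list, 42.2% in the ion channel list, 39.98% in the chromatin list, 55.3% in the protocadherin list, 41.2% in the synapse and axon list, 41.2% in the extracellular matrix and Notch list and 42.4% in the zinc finger list, beside 42.5% in the 5588 islands able to fall that were in no list.

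Place within the gene went with the level. Gene body islands whose midpoint lay in a coding exon (3356) averaged 34.0%, 32.3% and 25.9% in the cKO libraries and 26.9%, 71.1% and 70.4% in the control libraries, and 74.9% were called lower in the test that left out the library labelled control replicate 1. Those in introns (3948) averaged 32.0%, 30.8% and 25.4% in the cKO libraries and 26.3%, 60.9% and 60.4% in the control libraries, and 55.9% were called. In coding exons 2515 of 2847 islands able to fall were called, and in introns 2205 of 2994. Coding exon minus intron methylation was 1.32 points in cKO and 6.95 points in control (exact two-sided permutation test, p = 0.3), or 10.1 points in control without the library labelled control replicate 1 (exact, p = 0.1). The exon and intron islands were thus nearly level in cKO libraries. The share called was 56%, 63.2% and 68.7% in islands of the 5′, middle and 3′ parts of the gene, cut at equal lengths. Of islands able to fall, 887 of 1177, 1523 of 1905 and 2636 of 3144 were called in these parts. Over the 19 autosomes the share of all islands called was between 56.1% (chromosome 6) and 68.8% (chromosome 10).

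Distance from the nearest protein-coding 5′ end, part of the definition, also went with the level. The 344 islands at 1500 to 2000 bp, just outside the limit, averaged 19.2% in cKO and 43.0% in control replicates 2 and 3. The 289 at 2000 to 2500 bp, just inside, averaged 20.1% in cKO and 48.4% in these controls. Islands at 10000 to 50000 bp averaged 31.5% in cKO and 68.8% in these controls, so the limit lies on a slope and not at a step. A non-coding gene started within 2000 bp of 571 gene body islands, which averaged 26.8% in cKO and 56.5% in these controls. Of them 54.6% were called, or 312 of the 390 able to fall.

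Repeat content separated the share left. The 3208 islands without soft-masked bases kept a median of 40.9%, the 308 islands masked over 50% to 90% kept 54.99%, and the 245 islands masked over 90% kept 64.9%. The last of these averaged 59.7%, 59.5% and 53.5% in the cKO libraries and 55.5%, 87.4% and 87.0% in the control libraries. The gap between islands over 50% masked and islands without masked bases was 23.03 points in cKO and 19.6 points in control (exact two-sided permutation test, p = 0.4), or 17.4 points in control without the library labelled control replicate 1 (exact, p = 0.1). Across the 6226 islands able to fall the correlation of masked share with share left was 0.36, as a description, since islands of a library share its depth and its base composition. Reads were mapped by the authors without mismatches, and whether reads from other repeat copies entered these islands was not tested.

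Long islands were less methylated. The 325 islands of 1000 bp or longer averaged 20.1%, 19.97% and 17.4% in the cKO libraries and 16.9%, 33.3% and 32.7% in the control libraries. Of these 25.5% were called, against 71.1% of the 1812 islands under 250 bp. Fewer of the long islands were able to fall. The calls were 83 of 127 long islands able to fall and 1289 of 1602 short ones. Among those able to fall, islands of 1000 bp or longer kept a median of 54.3%, and those under 250 bp kept 41.5%. The 4 longest covered the whole range. Filip1 (4161 bp, 98.2% soft-masked) was at 89.3%, 88.3% and 72.6% in the cKO libraries and at 78.3%, 96.4% and 98.4% in the control libraries, from 4 measured cytosines. Unc45b, a myosin chaperone, Cilp2, a cartilage protein, and Skor2, a transcriptional corepressor of cerebellar neurons, were at or below 9.36% in every library. Atp13a4, a transporter ATPase, had the most reads, 97266 to 185670 per library over 4 cytosines of a fully masked intron island, and was at 59.8%, 60.1% and 52.6% in the cKO libraries and 55.2%, 91.5% and 90.8% in the control libraries.

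Single genes often held several islands. Of the 4470 host genes 1643 held at least 2 gene body islands, and 315 of these held both an island under 10% and an island at 75% or more in control replicates 2 and 3. Ttn, the giant protein of the sarcomere, held 13, all between 31.5% and 69.1% in cKO and between 80.5% and 97.2% in these controls, and 12 of 13 were called lower in the test that left out the library labelled control replicate 1. Prdm16, a transcription factor of neural stem cells, held 12, of which 8 were under 10% in these controls. Only 3 of its islands were able to fall, and 0 were called. Wwox, an oxidoreductase, held 22, with 15 of 21 able to fall called. Camta1, a transcription activator, held 18, with 11 of 14 called, and Cit, a kinase of cytokinesis, held 16, with 10 of 15 called. Of all gene body islands 64.4% were called, and of those able to fall 81.0%. The gene model Gm20388 spans 4434882 bp and held 65 that lie in no other host gene. The 24 islands of Gse1 also lie within that model and are counted for Gse1 alone.

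CpGs inside methylated islands and in their surroundings fell together. For islands at 75% or more in control replicate 2, CpGs at 1000 to 2000 bp outside averaged 34.4%, 32.8% and 25.2% in the cKO libraries and 26.8%, 73.6% and 73.1% in the control libraries. CpGs at least 100 bp inside averaged 45.7%, 44.0% and 36.7% in the cKO libraries and 38.1%, 88.4% and 87.1% in the control libraries. The mean inside was above the mean outside in every library, and cKO was at 42.2% of control replicate 3 outside and 48.4% inside. These islands were chosen for a high level inside, which favors this order. The CpGs outside came from 1035 islands and those inside from 3271, so the sides are not matched by island.

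Islands under 10% in control replicate 2, chosen for a low level inside, had the opposite order. CpGs at 1000 to 2000 bp outside averaged 21.8%, 22.2% and 18.1% in the cKO libraries and 18.2%, 47.5% and 45.4% in the control libraries. CpGs at least 100 bp inside averaged 1.53%, 2.22% and 2.05% in the cKO libraries and 1.26%, 1.82% and 1.84% in the control libraries. The mean was therefore lower inside than outside in all libraries, and outside it was lower in cKO than in control replicates 2 and 3. These CpGs came from 325 islands outside and 1085 inside. Within islands at 75% or more with at least 5 cytosines (2513), the median SD among cytosines was 12.3, 11.8 and 10.03 points in the cKO libraries and 13.8, 9.24 and 10.1 points in the control libraries.

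**Figure D5:**
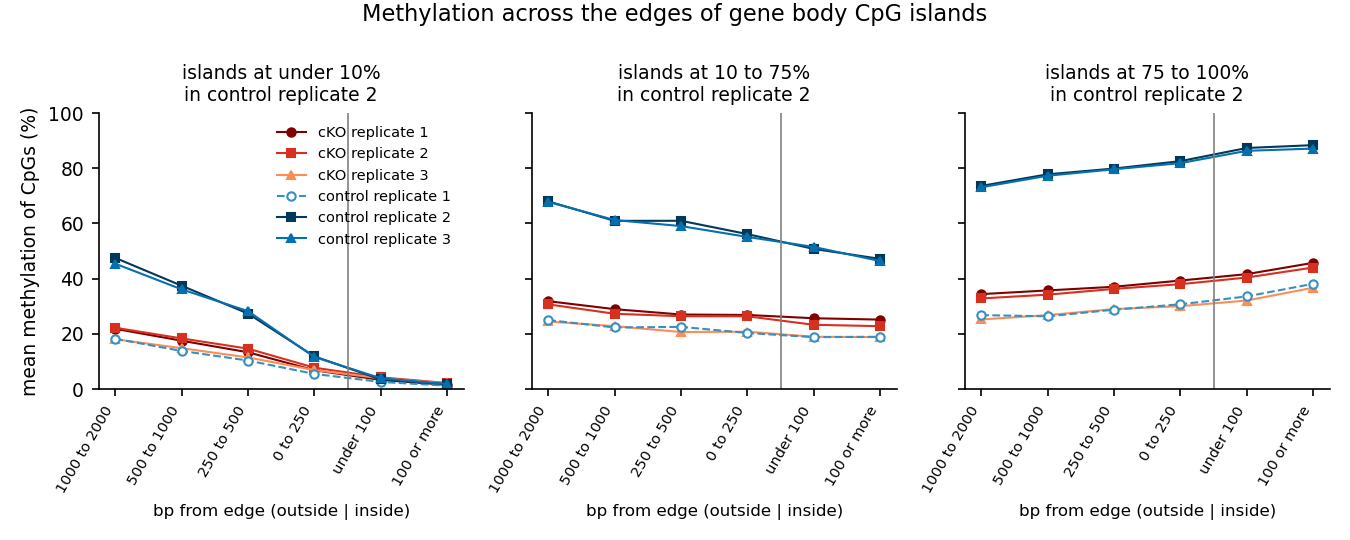
Mean methylation of CpGs (y axis, percent) by distance from the edge of gene body islands (x axis, bp outside to the left of the line and inside to the right), in 3 panels by the level of the island in control replicate 2; red lines are cKO, blue are control, and the library labelled control replicate 1 is dashed. In the first panel all libraries drop to near 0% inside the island, and in the last panel all libraries are higher inside than outside.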

How the data were processed

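Ox-RRBS libraries of full cortex at embryonic day 16 (3 cKO, 3 control, grouped by the labels) were analysed. Reads were mapped by the authors to GRCm38 with Genomatix software, perfect matches only. The submitters' processing notes name GRCm38 and methylKit. Coverage of each cytosine was deposited as a count of reads. The deposited percent values give the reads with C and with T, not normalised between libraries and not pooled. All 1603881 listed cytosines checked against the sequence were the C of a CpG. Methylated reads were recovered from coverage and percent and summed over the cytosines of an island, and each island was weighted equally in means. A read over several cytosines was counted at each of them.

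Merged windows can fall under the observed to expected ratio of 0.6 as a whole, which held for 4259 of the 7831 members. Protein-coding 5′ ends were those of every protein-coding transcript in GENCODE M21. A binomial fit with the group as its term covered all 29209 islands, and the Pearson dispersion was moderated across islands as in limma, with the prior from islands of 5% to 95% and a floor of 1. Islands were called at q under 0.01 and 25 points. Level comparisons used exact permutation tests over libraries. The model was tested on simulated data. Tools were limma 3.58.1 (R 4.3.3) and pandas 2.3.3, numpy 2.4.6, scipy 1.17.1 and matplotlib 3.10.9 (Python 3.11.15).

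The rule for named islands took the 10 largest falls and at most 5 rises of called islands without overlap, at least 5 cytosines and 50 reads per library, which left 2641 islands and no rise. It also took the 6 highest shares left among 2294 such islands at 75% or more, the 4 longest, the one with most reads, every island of the imprinted list and up to 4 with most reads of each other list. The rule used the test without control replicate 1, since the test of all libraries made no calls. Lists match host gene symbols by their first letters and so hold a few genes of other families, such as Ankrd genes among those starting with Ank. The members and lists were chosen with earlier results of these data known. Alternatives were other coverage and cytosine minimums, island definitions, 5′ ends, weights, thresholds and tests, a block for the replicate number, and each library left out. Reads carried no molecular identifiers and were counted at each cytosine they cover, so the counts of an island are not independent molecules. The 95% Wilson intervals and the limit of 3 counts for a level of 0 cover counting error only. Both take the counts as independent and so are too narrow.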

Additional observations from a re-analysis of the deposited data

How the results depend on the processing

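With all 6 libraries, a plain binomial test called 4012 gene body islands lower, and leaving out 1 library gave 0 to 5046, the highest without control replicate 1. The other alternatives for all 6 libraries gave 0 calls. Without control replicate 1, 5046 calls became 0 with each island's own dispersion, where 5426 islands had an unadjusted p under 0.05, 3984 with limma, 1557 of 2355 islands at a coverage of 20 or more, 2754 of 4366 islands with at least 5 cytosines and 24 of 667 islands of the stricter definition, of which 194 were able to fall. Leaving out a further library gave 2860 (without control replicate 2) to 5023. The causes of these losses were not tested.

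The differences between cKO and control in mean methylation, in gene body minus promoter and in gene body minus intergenic methylation stayed negative in the alternatives run, and under the stricter island definition they were -6.72, -7.05 and -3.83 points. The gene body minus intergenic gap itself changed sign, in cKO to 8.43 points with each read weighted equally, 1.14 with each cytosine weighted equally, 0.885 with at least 5 cytosines and 2.91 under the stricter definition, and in control to -1.31 points with the 5′ ends of genes only. The contrasts within genes (exon and intron, masked and unmasked, gene body and own promoter) were computed with all libraries and without control replicate 1 only. The median share left of 42.5% became 50.4% with each read weighted equally. After seeing the data, 2 alternatives were added. Without the 18 members of over 10000 reads the read-weighted share was 44.7%, and without the members in Gm20388 alone it was 50.5%. They gave 5071 and 5008 calls. Replicate numbers are shared between groups. The deviations of same-numbered libraries from their group means had r of -0.20, 0.08 and -0.27. In the control group these deviations mostly reflect the distance of control replicate 1 from the other controls. They therefore cannot tell whether the numbers pair the libraries. With the number as a replicate block there were 0 calls in all libraries and 5263 without control replicate 1, and the difference of means of -22.3 had an exact paired p of 0.5. A coverage of at least 6 reads at 3 cytosines limits the precision of single islands.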
